A study of Mus musculus with 18 samples.

Results

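The loss of Brca2, with 1 copy of Trp53 deleted beside it, was followed by different changes in messenger RNA in the 2 kinds of luminal cell of the mouse mammary gland. The quantity described is an interaction: the change from wildtype (WT) to knockout (KO) in luminal progenitors (LP) minus the same change in mature luminal cells (ML). A negative value means that KO moved a gene further down, or less far up, in LP than in ML. It rests on 12 of the 18 libraries of the study, 3 in each of LP KO, LP WT, ML KO and ML WT, and the other 6 libraries came from basal cells of the same 6 mice. All mice were females of 14 weeks and each gave 1 library per population, sorted by flow cytometry. KO mice carried the MMTV-cre transgene, in which a mammary tumour virus promoter drives Cre recombinase in mammary epithelium. By the series' genotype, Brca2 was deleted in these mice on both alleles and Trp53 on 1 allele. The strain label lists floxed Brca2 and Trp53 with MMTVcre for all 18 libraries, the WT ones included, so whether WT mice carried the transgene is not known from the labels. Sample names speak of a knockdown where the genotype label says Brca2KO, and groups follow the genotype label.

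LP cells are the source of the alveolar cells that secrete milk, depend on the receptor Kit and the transcription factor Elf5, and are widely studied as a source of BRCA-associated tumours. ML cells line the ducts beside them, carry the estrogen, progesterone and prolactin receptors, and signal to their neighbours. Basal cells form the outer, contractile layer, are held to the basement membrane by laminins and hemidesmosomes, and depend on the transcription factor p63. Brca2 acts in the repair of DNA breaks by homologous recombination, and p53 arrests or kills cells with damaged DNA.

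Levels are in CPM, the counts of a gene scaled to a library total of 1e6 after TMM normalization, listed in the order of mice 1, 2 and 3 of a group (n = 3 mice). Log2 values are fitted changes, and SE is their standard error. Adjusted p-values come from edgeR's quasi-likelihood test with Benjamini-Hochberg adjustment over all 16466 genes tested, and a gene is called under 0.05. Total counts per library, in units of 1e6, ranged over 22.42 to 32.72 for the LP KO group and 9.29 to 16.17 for LP WT. For ML the ranges were 8.76 to 30.55 (KO) and 5.97 to 20.33 (WT). Every LP KO library was deeper than every LP WT library. With every library thinned to the total of the shallowest, 1559 genes were called in place of 1727. The sorted populations carried their own markers: summed over 28 mature luminal identity genes, ML WT stood at 11617 to 13448 CPM and LP WT at 1771 to 2221 CPM. The sum of 28 progenitor identity genes was 11702 to 18441 CPM in LP WT and 2616 to 2714 CPM in ML WT.

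Trp53 itself, at mm10 chr11:69580348-69591873, stood at 9.05, 7.25 and 7.71 CPM in LP KO and at 67.1, 72.6 and 150.3 CPM in LP WT. In ML it stood at 14.9, 13.6 and 17 CPM in KO and at 47.2, 49.2 and 39.6 CPM in WT. No KO library reached a WT library of its population, and the fall was larger in LP, with log2 changes of -3.60 in LP and -1.58 in ML. The difference between them was -1.96 (SE 0.42, adjusted p = 0.0064). If each copy gave equal RNA, losing 1 of 2 copies would be a log2 change of -1. The fitted Trp53 falls, with an SE of 0.36 in LP and 0.34 in ML, were both larger than that, and the difference from -1 was not tested. Brca2 gave 20.4, 24.7 and 10.3 CPM in LP KO and 16.4, 25.7 and 35.6 CPM in LP WT. In ML it gave 9.82, 15.8 and 8.03 CPM in KO and 4.75, 7.92 and 15.7 CPM in WT. The genotypes overlapped in both populations, and the difference of -0.84 did not pass the test (adjusted p = 0.209). Reads are counted over the whole gene, so that the Brca2 level does not check the deletion.

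The change with genotype differed between the 2 luminal populations for 1727 of 16466 genes (10.5%). For 1259 genes (7.65%) the change was lower in LP than in ML, and for 468 (2.84%) it was higher. The imbalance came mostly with rises in ML. Of the 1259 genes, 781 rose in ML without a call in LP, 74 rose in ML and fell in LP, 69 rose in both, 168 fell in LP alone, 2 fell in both and 165 passed neither test of KO against WT. Of the 468 genes, 222 rose in LP without a call in ML, 60 fell in ML without a call in LP, 2 rose in LP and fell in ML, 9 rose in both and 175 passed neither. In the separate comparisons, KO against WT called 1243 genes up (7.55%) and 935 down (5.68%) in LP, and 2059 up (12.5%) and 432 down (2.62%) in ML. These counts moved with single mice. Without WT mouse 2, LP had 388 up and 191 down and ML 109 down. Without KO mouse 1, LP had 755 up and 411 down and ML 80 down, and without KO mouse 3, LP had 612 up and 381 down. ML had 134 down without KO mouse 2 and 249 without WT mouse 3, and LP 532 down without KO mouse 2. The split by pattern rests on these calls. The median interaction over all genes was -0.06.

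The mice did not weigh equally. Without KO mouse 1 the interaction called 967 genes, 130 of them higher in LP, without KO mouse 3 it called 1122, 206 of them higher, and without WT mouse 2 it called 935, 122 of them higher. Without WT mouse 1 the count of higher genes was 243. Among 6 mice, LP and ML libraries of the same mouse deviated together from their group means, with correlations of 0.176 to 0.292 across genes, and the mouse was kept as a block.

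**Figure D1:**
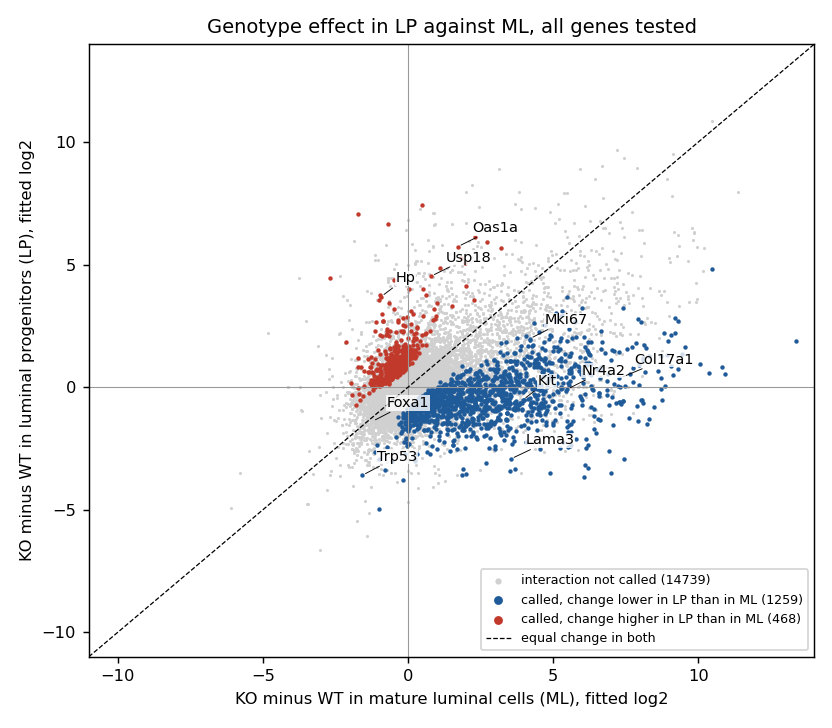
Fitted log2 change from WT to KO in ML (horizontal axis) and in LP (vertical axis) for 16466 genes, with the 1259 called lower in LP in blue, the 468 called higher in LP in red and the line of equal change dashed. Most blue points lie to the right of 0 near a vertical value of 0, where genes rose in ML with little change in LP. Fitted values of genes at 0 counts in a whole group depend on the prior count.

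**Figure D2:**
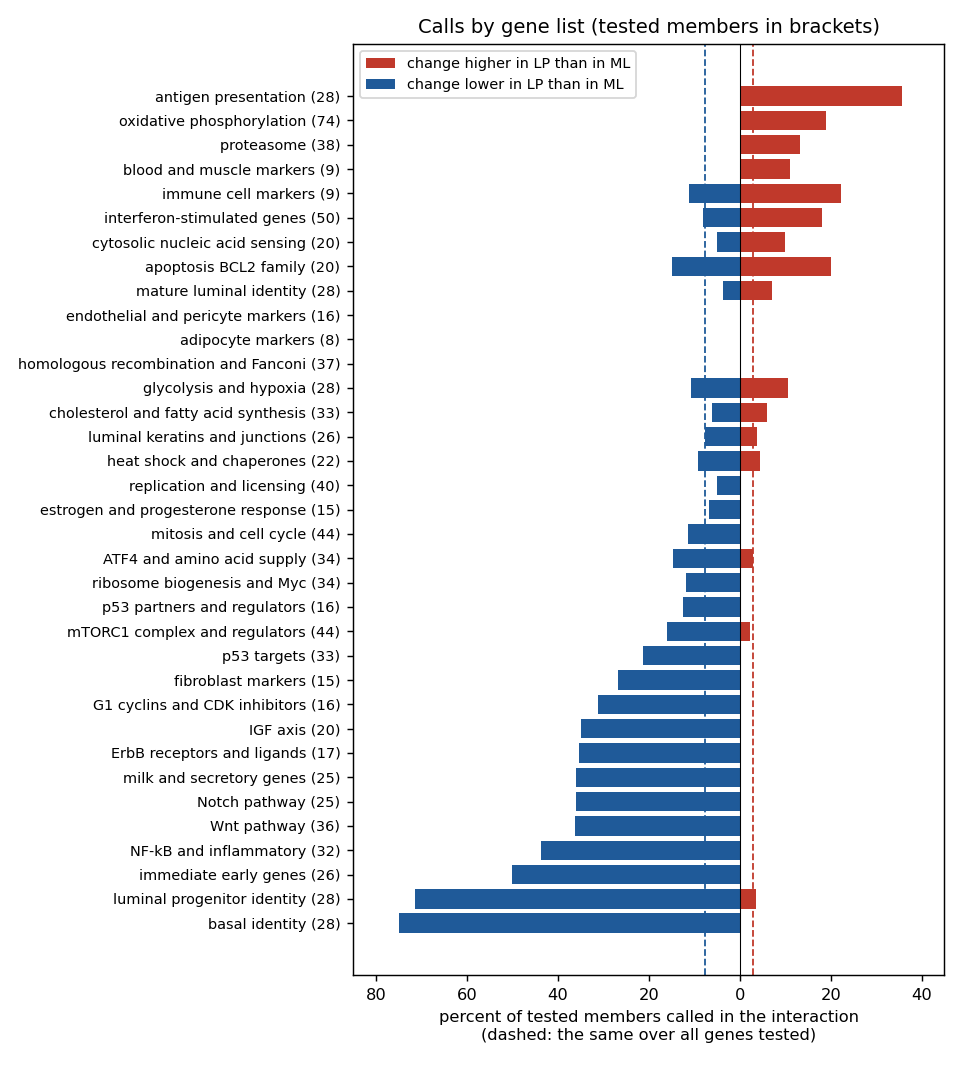
Percent of the tested members of each of 35 gene lists called higher (red, right) or lower (blue, left) in LP, with the shares over all genes (2.84% and 7.65%) dashed. Basal and luminal progenitor identity genes hold the largest shares on the left, and antigen presentation genes on the right.

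Basal genes had the highest share called lower in LP among the 35 lists. Of 28 basal identity genes tested, 21 (75%) were called lower in LP, against 7.65% of all genes, and 0 higher. The median interaction was -3.09. They rose in ML, where 21 of 28 were called up, against 12.5% of all genes. In LP 3 were up and 4 down. The count called lower in LP was 18 to 21 with any 1 mouse left out and 19 without the mouse as a block.

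Lama3 encodes the alpha chain of laminin-332, which anchors epithelium to the basement membrane, and had the lowest p of all genes. At mm10 chr18:12333417-12583013, it stood at 24.4, 20.4 and 11.5 CPM in LP KO and 186, 149 and 94.1 CPM in LP WT. Its ML level was 83.2, 47.9 and 53.5 CPM in KO and 5.54, 4.09 and 6.16 CPM in WT. The genotypes separated in opposite directions, low in KO for LP and high in KO for ML. The changes of -2.93 in LP (adjusted p = 5.70e-05) and 3.54 in ML (adjusted p = 1.66e-06) differed by -6.44 (SE 0.39, adjusted p = 4.69e-07). Basal KO libraries held 857 to 1316 CPM.

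Col17a1, the transmembrane collagen of hemidesmosomes at mm10 chr19:47646341-47692042, changed in ML only by its own tests. It stood at 104, 68.4 and 97.3 CPM in ML KO and 0.317, 0.751 and 0.556 CPM in ML WT. LP held 3.13, 2.06 and 2.37 CPM in KO and 3.45, 1.33 and 1.29 CPM in WT. All ML KO libraries lay far above every other luminal library, and the LP genotypes overlapped. The interaction was -6.78 (SE 0.48, adjusted p = 9.44e-07). Trp63, which encodes p63, followed with 27.7, 33.9 and 29.8 CPM in ML KO, 0.158, 0.584 and 2.31 CPM in ML WT, and 1.79 to 3.82 CPM in LP KO. Its interaction of -3.26 (adjusted p = 0.00629) lost its call without WT mouse 2 (adjusted p = 0.0633), and with 1 mouse left out it ranged from -5.04 to -2.70. The basal keratins Krt5 and Krt14 gave interactions of -5.52 (adjusted p = 7.28e-06) and -4.81 (adjusted p = 1.45e-04). Krt5 reached 184, 147 and 141 CPM in ML KO against 3.48, 2.5 and 1.92 CPM in ML WT.

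Col9a3, a chain of collagen IX, stood at 65.2, 74.9 and 89 CPM in ML KO and 1.43, 2 and 1.58 CPM in ML WT, and its LP level was 52.8 to 107 CPM in KO and 64.5 to 71.8 CPM in WT. Its interaction was -5.34 (SE 0.36, adjusted p = 9.44e-07). Cd44, the hyaluronan receptor, rose from 15, 11 and 11 CPM in ML WT to 223, 176 and 126 CPM in ML KO. In LP its groups overlapped, at 141 to 335 CPM in KO and 215 to 622 CPM in WT, and the interaction was -4.47 (SE 0.32, adjusted p = 9.44e-07). The semaphorin Sema6a (-5.87), the ectonucleotide pyrophosphatase Enpp1 (-6.38), the cytoskeletal linker Epb41l2 (-3.94), the adhesion protein Flrt3 (-4.34) and the glypican Gpc6 (-6.90) had the same direction. Gpc6 changed by -3.43 in LP (adjusted p = 2.04e-04) and by 3.50 in ML (adjusted p = 9.61e-05), and Flrt3 by -1.05 in LP (adjusted p = 0.0396) and 3.42 in ML (adjusted p = 4.03e-06), so that both fell in LP and rose in ML. Col12a1 had 2 counts over the ML WT group and 659 over ML KO, a scaled ratio of 192, with a 95% counting interval of 52.9 to 1587.

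The ML KO libraries held these genes at a small share of the level in basal cells of the same mouse. Over the basal identity list, the median gene stood at 4.77%, 6.83% and 8.27% of basal in KO mice 1 to 3, and at 0.303%, 0.264% and 0.334% in WT mice. The KO mice lay above the WT mice with no overlap. The share was not the same for every gene: by group means it was 9.7% for Krt5, 7.24% for Krt14, 10.03% for Col17a1, 16.2% for Lgr5 and 0.584% for the smooth muscle actin Acta2. Progenitor identity genes showed the same feature at a higher share. The median gene of that list stood in ML at 65.9%, 24.4% and 32.7% of LP in KO mice 1 to 3, and at 4.98%, 3.67% and 5.06% in WT mice. KO mouse 1 had the highest share.

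Among the 924 genes called lower in LP that rose in ML, 16 (1.73%) had an ML KO mean above both the LP KO and the basal KO mean. The share was 25.5% of all genes, but the 924 were picked with the same ML KO and LP KO levels. The comparison of these shares is therefore a description and no test. Of the 924, predicted genes aside, only Lrriq1, Abcc2 and Nppb had every ML KO library above every LP KO and basal KO library. All 3 were at under 1 CPM on average. Each lost its call with 1 of several mice left out, with an adjusted p of up to 0.063, 0.0606 and 0.168. Summed fibroblast markers (15 tested of 15 listed, none at 0 counts in any group) also moved, from 73.8 to 284 CPM in ML WT to 314 to 537 CPM in ML KO, and from 49.2 to 91.9 CPM in LP WT to 114 to 197 CPM in LP KO, without overlap in either. Their sum was 2725 to 3272 CPM in basal KO. In sorted bulk RNA, a change in the number of cells of a type and a change in RNA per cell cannot be told apart. The part of basal or progenitor cells within the ML sort in these values was not tested.

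**Figure D3:**
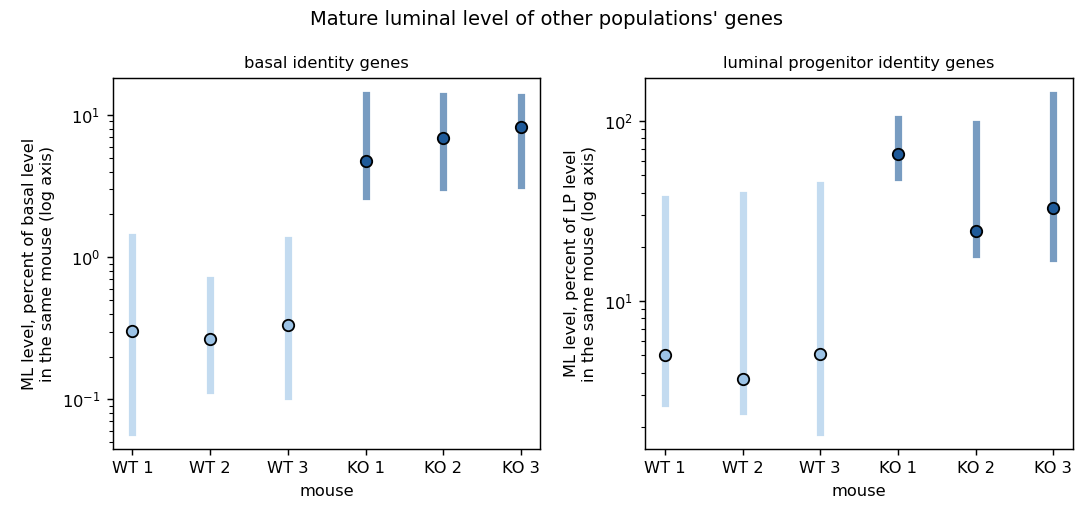
Level in ML as a percent of the level in basal cells (left, 28 basal identity genes) or LP cells (right, 28 progenitor identity genes) of the same mouse, on log axes, with the median as a point and the quartiles as a bar. KO mice lie above WT mice in both panels, at 4.77% to 8.27% against 0.264% to 0.334% on the left.

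Progenitor genes rose in ML as well. Of 28 luminal progenitor identity genes, 20 (71.4%) were called lower in LP, against 7.65% of all genes, with a median of -2.97. The 1 called higher, Prom1, is also on the mature luminal identity list. In ML 21 were called up, against 12.5% of all genes, and 0 down, while LP had 1 up and 4 down. Kit, the stem cell factor receptor at mm10 chr5:75574987-75656722, stood at 257, 127 and 167 CPM in ML KO and 11.2, 10.8 and 13.3 CPM in ML WT. In LP it stood at 495, 629.5 and 397 CPM in KO and 492, 833 and 852 CPM in WT. The ML genotypes separated and the LP genotypes overlapped, with an interaction of -4.49 (SE 0.53, adjusted p = 4.97e-05). Sox10, a transcription factor of progenitor and basal cells, rose in ML from 2.85, 3.42 and 4.02 CPM to 132, 44.7 and 86.6 CPM. Its LP level was 195 to 333 CPM in KO and 131 to 193 CPM in WT, and the interaction was -3.92 (SE 0.44, adjusted p = 3.32e-05). Elf5 gave -3.43 (SE 0.60, adjusted p = 0.00153) with ML KO at 50.2 to 182 CPM and ML WT at 6.18 to 11.8 CPM. Tspan8, a tetraspanin, changed in LP by -2.03 on the fitted log2 scale (adjusted p = 0.0253) and rose in ML by 2.35 (adjusted p = 0.0165), a difference of -4.57.

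Genes of milk secretion shared the direction. Of 25 tested, 9 (36%) were called lower in LP, against 7.65% of all genes, and 0 higher. All 25 had an interaction below 0, with a median of -2.53. In ML 12 of 25 were up, against 12.5% of all genes. Elf5 and Mfge8 are members of this list and of the progenitor identity list. The progenitor identity list also holds the milk protein genes Lalba, Csn3, Csn2 and Wap. The counts of these lists are therefore not separate results. Xdh, which coats the milk fat globule, stood in ML at 109.9, 40.6 and 95 CPM in KO and 7.76, 17.6 and 13 CPM in WT. Its LP level was 212 to 312 CPM in KO and 311 to 542 CPM in WT, so that LP genotypes overlapped, and the interaction was -3.17 (SE 0.48, adjusted p = 4.52e-04). Mfge8, a milk fat globule glycoprotein, gave -2.83 (adjusted p = 7.25e-04). Igfbp5 is not on the milk list and was the 1 of 15 estrogen and progesterone response genes called lower in LP. That share of 6.67% is below the 7.65% of all genes and is no result about the list. Igfbp5 is a binding protein of insulin-like growth factors linked to involution. It fell in LP, from 3105, 9588 and 4019 CPM to 1004, 2285 and 1724 CPM. In ML it rose from 88.7, 236 and 71 CPM to 545, 288 and 598 CPM. It separated by genotype in both and its interaction was -3.65 (SE 0.49, adjusted p = 1.49e-04). Without KO mouse 1, 5 of the 25 milk genes were called, and without WT mouse 1 or WT mouse 3, 6.

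Hormone receptor genes of ML cells changed by amounts whose difference was not called. Of 28 mature luminal identity genes, 2 were called higher in LP (7.14%, against 2.84% of all genes) and 1 lower (3.57%, against 7.65%). The median change was -0.95 in LP and -0.77 in ML, with a median interaction of -0.14. The estrogen receptor gene Esr1 fell in both, from 32.3, 31.2 and 17.1 to 3.25, 11.5 and 3.16 CPM in LP and from 267, 259 and 166 to 45.4, 99.4 and 95.7 CPM in ML. No KO library reached a WT library in either. Its interaction of -0.73 (SE 0.53) was not called (adjusted p = 0.402), and with 1 mouse left out it ranged from -1.28 to -0.24. Foxa1, its pioneer factor, changed by -1.40 in LP (adjusted p = 0.0192) and by -1.24 in ML (adjusted p = 0.0264), with an interaction of -0.12 (SE 0.44, adjusted p = 0.9). The prolactin receptor gene Prlr stood in ML at 462, 2029 and 2524 CPM in KO, lowest in mouse 1, and 5094, 5557 and 4779 CPM in WT. Its LP level was 51.5, 203 and 65.8 CPM in KO and 418, 569.8 and 415 CPM in WT, and its interaction was -0.31 (SE 0.51, adjusted p = 0.751). Summed over the list, ML fell from 11617 to 13448 CPM in WT to 4159 to 6832 CPM in KO without overlap. The called members were the surface markers Ly6a (Sca-1, 2.00) and Prom1 (CD133, 2.03), both higher in LP, and the receptor gene Igf1r. Igf1r rose in ML from 4.28, 5.92 and 11 CPM to 82.3, 42.3 and 37.5 CPM, and its interaction was -3.87 (SE 0.45, adjusted p = 4.97e-05). Ly6a was not called without KO mouse 1, KO mouse 3, WT mouse 1 or WT mouse 2, with an adjusted p of up to 0.0995 without KO mouse 3, and Prom1 without KO mouse 1, KO mouse 2, WT mouse 1, WT mouse 2 or WT mouse 3, with an adjusted p of up to 0.211 without KO mouse 1, and values of 1.23 to 3.01 over single-mouse exclusions.

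**Figure D4:**
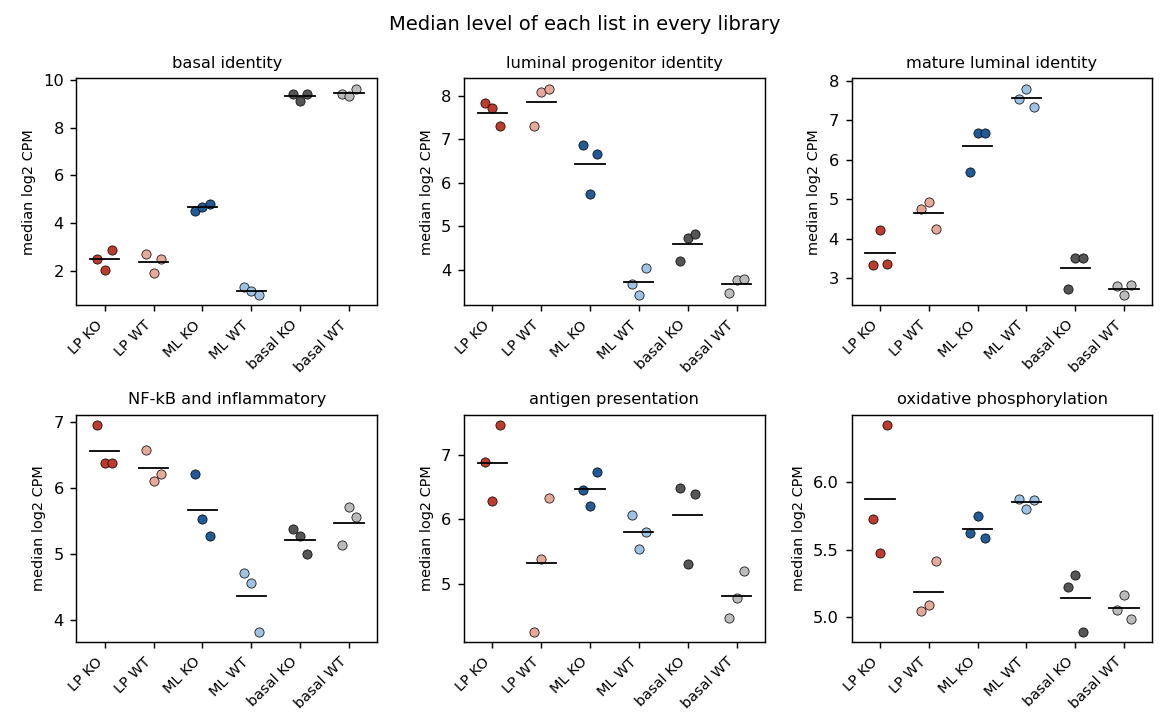
Median log2 CPM of 6 gene lists in each of 18 libraries (points, mice 1 to 3 from left to right in a group), with the group mean as a bar. Basal and progenitor lists are higher in ML KO than in ML WT with no overlap, and the mature luminal list is lower in ML KO than in ML WT with no overlap.

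Of the genes of 4 growth factor pathways, 6 of 17 ErbB, 13 of 36 Wnt, 9 of 25 Notch and 7 of 20 IGF genes were called lower in LP, against 7.65% of all genes, and 0 were called higher. Interactions above 0 were seen in 4 ErbB, 9 Wnt, 8 Notch and 6 IGF genes, none of them called. Egfr and Nrg1 (ErbB) and Dll1 (Notch) are also on the basal identity list. Counts of lists that share genes are not separate results. Over the alternatives run, up to 2 Wnt genes (DESeq2), 1 Notch gene and 2 IGF genes (without WT mouse 1) were called higher, and the ErbB count was 3 without WT mouse 1 or WT mouse 2. Egfr, the epidermal growth factor receptor at mm10 chr11:16752203-16913907, stood in ML at 57.6, 38.8 and 45.8 CPM in KO and 1.58, 3 and 1.03 CPM in WT. In LP it stood at 82.8, 115 and 55.1 CPM in KO and 151, 154 and 127 CPM in WT. All 3 KO libraries were above WT in ML and below it in LP, where the change of -0.77 was not called (adjusted p = 0.103). The interaction was -5.55 (SE 0.49, adjusted p = 4.49e-06). Lrig3, of a family of ErbB regulators, gave -4.58 (adjusted p = 2.10e-05), and the ligand gene Nrg1 had 1 count over ML WT and 327 over ML KO, a scaled ratio of 190.4, with a 95% counting interval of 33.9 to 7542. The fitted interaction of Nrg1 moved from -6.79 to -4.01 without WT mouse 1 (adjusted p = 0.0345) and to -10.30 without WT mouse 3, and it was called in both.

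Lgr5, the R-spondin receptor that raises Wnt signalling, moved in opposite directions. It stood at 0.0834, 0.167 and 0.198 CPM in LP KO and 1.36, 4.11 and 0.919 CPM in LP WT. ML libraries held 10.7, 12.6 and 23.6 CPM in KO and 0, 0.25 and 0.299 CPM in WT. The genotypes did not overlap in either population, and the interaction was -9.58 (SE 0.79, adjusted p = 3.01e-06). The related receptor Lgr4 gave -2.63 (adjusted p = 5.09e-05) and the Wnt receptor Fzd1 gave -3.03 (adjusted p = 3.32e-05), with ML KO at 20.1 to 37.6 CPM and ML WT at 3.33 to 6.12 CPM. Among Notch genes, the ligand gene Dll1 (-4.72), the coactivator gene Maml2 (-3.60) and the regulator gene Dtx1 (-4.75) were called. Dll1 rose from 2.22, 0.417 and 0.428 CPM to 16.6, 13.1 and 20.3 CPM in ML, and basal KO libraries held 408 to 581 CPM. Igfbp3, which binds insulin-like growth factors, rose from 0.475, 1.08 and 1.24 CPM to 78.3, 50.7 and 65.6 CPM in ML and gave -4.98 (SE 0.57, adjusted p = 4.17e-05).

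Inflammatory genes under NF-kB were called lower in LP in 14 of 32 cases (43.75%, against 7.65% of all genes) and higher in 0. The median interaction was -1.57. In ML 12 of 32 rose, against 12.5% of all genes, and 0 fell, while LP had 4 up and 1 down. Cxcl1, a chemokine that draws neutrophils, stood in ML at 489, 187 and 91.4 CPM in KO and 37.7, 23.9 and 9.8 CPM in WT. In LP it stood at 1235, 968 and 469 CPM in KO and 2714, 1045 and 279 CPM in WT. ML genotypes separated and LP genotypes overlapped. The interaction was -3.54 (SE 0.43, adjusted p = 6.73e-05). Icam1, a leukocyte adhesion molecule, rose in ML from 37.5, 52.9 and 29.2 CPM to 389, 182 and 179 CPM and gave -2.54 (SE 0.34, adjusted p = 1.75e-04). Tnfaip3, which encodes the feedback inhibitor A20, gave -2.18 (SE 0.30, adjusted p = 1.73e-04) with ML KO at 85.2 to 227 CPM and ML WT at 31.9 to 52.3 CPM. The count of 14 was 6 without KO mouse 1, WT mouse 2 or the mouse block, 8 without KO mouse 3, and 7 when differences were tested against a minimum of 0.5 log2.

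The promoters of Cxcl1 and Tnfaip3 are shown because they hold a kappa B type motif, the sequence that NF-kB binds, and rose in ML together. The motif searched, on both strands, was GGG and TTTCC with 2 bases of any kind between them, in the 250 bases upstream of RefSeq gene starts (build GRCm38.p6, the mm10 assembly). Capitals mark matches. The sequences run 5′ to 3′ on the gene's strand, Cxcl1 at chr5:90890995-90891244 (plus strand) and Tnfaip3 at chr10:19015411-19015660 (minus strand).
Cxcl1: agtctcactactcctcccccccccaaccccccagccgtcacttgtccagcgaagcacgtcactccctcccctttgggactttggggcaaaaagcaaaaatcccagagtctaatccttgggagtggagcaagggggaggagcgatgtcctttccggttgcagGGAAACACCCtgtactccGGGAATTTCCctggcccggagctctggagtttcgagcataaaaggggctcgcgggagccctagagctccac
Tnfaip3: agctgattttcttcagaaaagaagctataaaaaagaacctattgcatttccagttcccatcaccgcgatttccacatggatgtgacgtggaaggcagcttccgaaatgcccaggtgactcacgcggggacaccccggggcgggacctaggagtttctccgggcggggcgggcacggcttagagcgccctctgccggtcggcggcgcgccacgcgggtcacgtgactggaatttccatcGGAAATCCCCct
Of 24 NF-kB list members with a window in the table, 9 (37.5%) held a match, against 1.79% of the 12237 tested genes with a window and 1.41% of all 32851 windows. Among genes called lower in LP the share was 3.06%, and among those called higher 1.65%. A match describes letters in the window and is not evidence of binding.

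Immediate early genes respond within minutes to growth factors and stress. They were called lower in LP in 13 of 26 cases (50%, against 7.65% of all genes) and higher in 0. Their median change was -0.81 in LP, where 6 fell, and 0.31 in ML, where 9 rose. Summed over the list, however, the level was lower in KO in both populations without overlap. The sum was 29338.5 to 64440 CPM in LP WT and 16875 to 19343 CPM in LP KO. In ML it was 18428 to 20390 CPM in WT and 15574 to 16697 CPM in KO. The orphan nuclear receptor Nr4a2 stood in ML at 51.2, 16.3 and 28.8 CPM in KO and 0.634, 0.667 and 0.77 CPM in WT. Its LP level was 33.9 to 49.4 CPM in KO and 36.6 to 46.8 CPM in WT, and the interaction was -5.57 (SE 0.58, adjusted p = 1.80e-05). Egr3, a zinc finger factor, gave -5.58 (SE 0.61, adjusted p = 2.81e-05) with ML KO at 32.7 to 63.1 CPM against 1.11 to 3.42 CPM in ML WT. Fosl1, an AP-1 subunit, gave -2.73 (SE 0.34, adjusted p = 7.06e-05). The count was 9 to 17 with 1 mouse left out.

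Of 50 interferon-stimulated genes tested, 9 (18%) were called higher in LP, against 2.84% of all genes, with a median of 0.55. The 4 called lower (8%) are near the 7.65% of all genes and are no result about the list. Genes of the list rose in both populations, 32 of 50 in LP and 25 in ML, with none down. Oas1a, an oligoadenylate synthetase that senses double-stranded RNA, at mm10 chr5:120896256-120907544, stood at 50.3, 35.2 and 103 CPM in LP KO and 1.23, 1.22 and 1.1 CPM in LP WT. The ML values were 21.2, 12.9 and 28.7 CPM in KO and 6.02, 8.01 and 5.18 CPM in WT. Genotypes separated in both, and WT levels were lower in LP than in ML. The changes were 5.73 in LP and 1.71 in ML, with an interaction of 3.93 (SE 0.46, adjusted p = 5.00e-05). Oas2 gave 3.61 (SE 0.50, adjusted p = 2.13e-04) and its near relative Oas1g 3.86, whose reads may be shared with Oas1a and which lost its call without WT mouse 3 (adjusted p = 0.0581).

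Usp18, which removes ISG15 from proteins and restrains interferon signalling, changed in LP by its own test and not in ML. It stood at 23.5, 16.6 and 35.1 CPM in LP KO and 0.864, 1.33 and 1.04 CPM in LP WT. In ML it stood at 27.9, 19.1 and 37.9 CPM in KO and 17.9, 18.9 and 12.3 CPM in WT. Genotypes separated in LP and, narrowly, in ML (19.1 CPM in KO mouse 2 against 18.9 CPM in WT mouse 2). The ML change of 0.80 did not pass the test (adjusted p = 0.217). KO levels overlapped between the populations, and every WT level was lower in LP than in ML. The interaction was 3.69 (SE 0.44, adjusted p = 5.19e-05). The 4 members called lower in LP were Ifit1, Ifit2, Ifit3 and the chemokine gene Cxcl10, with fitted interactions of -1.84, -2.73, -5.78 and -2.21. Ifit3 had 0 counts over ML WT and 502 over ML KO, at least 97.4-fold higher when the empty group is set to a floor of 3 counts. Of the 4, Cxcl10 kept its call with any 1 mouse left out, and Ifit1 was not called without KO mouse 1, KO mouse 2, KO mouse 3, WT mouse 2 or WT mouse 3, with an adjusted p of up to 0.208 without WT mouse 2. Ifit2 lost its call without WT mouse 2 (adjusted p = 0.0538), and Ifit3 was not called without KO mouse 1, KO mouse 2, WT mouse 2 or WT mouse 3, with an adjusted p of up to 0.198 without WT mouse 3. The list had 5 higher without WT mouse 1 or WT mouse 2, 6 without KO mouse 3, and 4 higher and 0 lower without the mouse block. It had 5 lower without WT mouse 1, 3 without KO mouse 3, 2 without KO mouse 1, KO mouse 2 or WT mouse 3, and 1 without WT mouse 2.

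The promoters of Oas1a, Oas1g and B2m, all called higher in LP, are shown with the interferon-stimulated response element (GAAA, 2 bases of any kind and GAAA again, on either strand) in capitals, in the same window and build. Their positions are chr5:120907526-120907775 (minus strand), chr5:120887614-120887863 (minus strand) and chr2:122147437-122147686 (plus strand).
Oas1a: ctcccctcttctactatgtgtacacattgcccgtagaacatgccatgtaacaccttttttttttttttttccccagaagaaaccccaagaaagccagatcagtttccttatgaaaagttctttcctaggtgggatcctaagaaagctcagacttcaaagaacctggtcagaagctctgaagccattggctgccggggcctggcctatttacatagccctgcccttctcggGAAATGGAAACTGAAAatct
Oas1g: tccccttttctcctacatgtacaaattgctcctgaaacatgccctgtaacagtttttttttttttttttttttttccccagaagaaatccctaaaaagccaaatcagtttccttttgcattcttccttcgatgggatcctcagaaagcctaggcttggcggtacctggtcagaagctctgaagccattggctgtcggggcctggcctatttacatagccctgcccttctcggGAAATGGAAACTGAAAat
B2m: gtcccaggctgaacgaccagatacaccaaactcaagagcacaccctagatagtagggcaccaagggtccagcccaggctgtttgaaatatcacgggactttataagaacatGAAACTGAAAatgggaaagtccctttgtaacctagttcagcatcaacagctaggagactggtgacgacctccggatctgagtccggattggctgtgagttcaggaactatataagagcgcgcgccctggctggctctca
Matches overlap each other in Oas1a and Oas1g. The Oas1a window is upstream of the start used in the RefSeq promoter table, and 19 of its bases, with 15 of the 16 in capitals, lie inside the gene's full annotated span given above. Of 37 interferon list members with a window, 16 (43.2%) held a match, against 3.2% of tested genes and 2.98% of all windows. Of 11 called members with a window 7 held it, Ifit1, Ifit3 and Cxcl10 among them, so that members called in both directions did. The share was 6.04% of the genes called higher in LP and 2.95% of those called lower.

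Antigen presentation genes rose in LP. Of 28 tested, 10 were called higher in LP (2.84% of all genes) and 0 lower, with a median interaction of 1.05. In LP 16 rose, and in ML 2. B2m, the light chain of MHC class I, stood at 2589.7, 1409.8 and 3174 CPM in LP KO and 451, 714 and 797 CPM in LP WT. Its ML level was 2597, 1446 and 1443 CPM in KO and 1143, 1919 and 1827 CPM in WT. LP genotypes separated, ML genotypes overlapped, and the interaction was 1.67 (SE 0.33, adjusted p = 0.00334), not called without the mouse block. The class I heavy chain gene H2-D1, whose reads may be shared with other class I genes, gave 1.39 (adjusted p = 0.00912), and H2-DMa, which loads class II molecules, gave 2.69 (adjusted p = 0.0107). H2-D1 lost its call without WT mouse 2 (adjusted p = 0.0567), and H2-DMa without KO mouse 3 or WT mouse 2 (adjusted p up to 0.0898). The list count was 5 without KO mouse 1, 3 without KO mouse 3, 4 without WT mouse 1, 2 without WT mouse 2, 3 without the mouse block, 6 in the 12 luminal libraries alone, and 5 with trends on gene length and GC content removed or against a minimum difference of 0.5 log2.

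Immune cell markers stood beside this. Of 25 listed, 9 passed the count filter, and their sum was 13.5 to 66.7 CPM in LP KO, 8.95 to 20.2 CPM in LP WT, 4.47 to 11.7 CPM in ML KO and 4.19 to 5.51 CPM in ML WT. None of the 9 was at 0 counts in LP KO or LP WT, and S100a8 was at 0 counts over ML WT. KO against WT called 3 of the 9 up in LP and 1 in ML, with 0 down in either. The median change was 2.55 in LP and 0.95 in ML. In the interaction, 2 of the 9 were called higher in LP (22.2%, against 2.84% of all genes) and 1 lower. Csf1r (2.54) and Itgam (4.33), receptors of macrophages and myeloid cells, were the higher ones and S100a8 (-5.33) the lower one. Their calls ended in most single-mouse exclusions: Csf1r without KO mouse 1, KO mouse 3, WT mouse 1 or WT mouse 2, with an adjusted p of up to 0.188 without WT mouse 2, and Itgam and S100a8 without any 1 of the 6 mice, with an adjusted p of up to 0.182 and 0.163. Itgam ranged from 3.90 to 6.58 over these exclusions. The part of immune cells in the antigen presentation result was not tested.

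Subunits of oxidative phosphorylation, encoded in the nucleus, and of the proteasome were called up in more cases in LP than in ML. Of 74 oxidative phosphorylation genes, 14 (18.9%) were called higher in LP, against 2.84% of all genes, and 0 lower. An interaction above 0 was seen in 70, with a median of 0.89. In LP 36 were up and 1 down, and in ML 1 was up. Over all genes 7.55% were up in LP and 12.5% in ML. Cox8a, a subunit of cytochrome c oxidase, stood at 144, 119.7 and 201 CPM in LP KO and 69.7, 71.3 and 73.4 CPM in LP WT. ML libraries held 113, 125 and 140.1 CPM in KO and 164, 153 and 166 CPM in WT. KO was above WT in LP and below it in ML with no overlap, the ML change of -0.35 was not called, and the interaction was 1.46 (SE 0.30, adjusted p = 0.00562). Ndufa4 gave 1.41 (adjusted p = 0.0138), not called without WT mouse 2 (adjusted p = 0.058), and the complex I subunit gene Ndufb8 gave 1.22, not called without KO mouse 1, KO mouse 3, WT mouse 1 or WT mouse 2, with an adjusted p of up to 0.101 without WT mouse 2.

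Proteasome genes gave 5 of 38 called higher (13.2%, against 2.84% of all genes) and 0 lower, with a median of 0.66. Pomp, the proteasome assembly factor, stood at 133, 117 and 180.1 CPM in LP KO and 54.7, 50.7 and 51.1 CPM in LP WT, and at 93.3 to 98.5 CPM in ML KO and 81.6 to 105 CPM in ML WT. LP genotypes separated and ML genotypes overlapped, with an interaction of 1.37 (SE 0.30, adjusted p = 0.00737). Psmb1 (1.02) and Psmb5 (1.22), of the catalytic core, were not called with 1 of 4 mice left out: Psmb1 without KO mouse 1, KO mouse 3, WT mouse 1 or WT mouse 2, with an adjusted p of up to 0.168 without WT mouse 2, and Psmb5 without KO mouse 1, WT mouse 1, WT mouse 2 or WT mouse 3, with an adjusted p of up to 0.106 without KO mouse 1. Gene length moved with these results. The median length was 1967.5 bases for the 468 genes higher in LP, 3891 for the 1259 lower and 2678 over all. With trends on length and GC content removed, 4 oxidative phosphorylation genes and 3 proteasome genes were called. The oxidative phosphorylation count was 2 without KO mouse 1 or WT mouse 1, 3 without KO mouse 3, 1 without WT mouse 2 and 7 without WT mouse 3. DESeq2 called 26 and 9, and the test against a minimum of 0.5 log2 called 2 and 1. The proteasome count was 2 without KO mouse 1, KO mouse 3 or WT mouse 3, and 1 without WT mouse 1 or WT mouse 2.

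Cell division genes rose in both luminal populations. The median change of 44 mitosis and cell cycle genes was 2.85 in LP and 3.63 in ML, with 42 and 43 of 44 called up. In the interaction 5 were called lower in LP (11.4%, against 7.65% of all genes) and 0 higher. Prc1, which bundles microtubules at the central spindle, stood at 63.1, 70.1 and 42.8 CPM in LP KO and 27.8, 13.6 and 13.5 CPM in LP WT. The ML values were 51.5, 48 and 28.9 CPM in KO and 3.8, 2.17 and 2.87 CPM in WT. KO was above WT in both without overlap, the WT level was higher in LP, and the interaction was -2.13 (SE 0.48, adjusted p = 0.0095). The proliferation marker gene Mki67 gave -2.22 and the checkpoint kinase gene Bub1 -2.42. Mki67 was not called without WT mouse 3 (adjusted p = 0.0579), nor Bub1 without KO mouse 2, KO mouse 3, WT mouse 1 or WT mouse 3, with an adjusted p of up to 0.108 without WT mouse 3. The lower count was 1 without WT mouse 3, 2 without KO mouse 2 or KO mouse 3, and 3 without KO mouse 1 or WT mouse 1. It was 1 with length and GC trends removed and 10 in the fit to the 12 luminal libraries alone. The higher count was 2 without WT mouse 1, and 1 with DESeq2, without a filter on low counts or in the 12 luminal libraries.

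G1 regulators gave 5 of 16 called lower in LP (31.25%, against 7.65% of all genes) and 0 higher. The list as a whole was not shifted, with a median interaction of 0.01, 8 members above 0 and 8 below. KO against WT called 6 up and 2 down in LP, and 5 up and 0 down in ML. Cdk6, a kinase that phosphorylates RB1, rose in ML from 0.475, 0.5 and 0.0428 CPM to 19.2, 12.6 and 10.04 CPM. Its LP level was 10.9 to 23.2 CPM in KO and 20.4 to 42.6 CPM in WT, and the interaction was -6.50 (SE 0.73, adjusted p = 3.21e-05). Ccnd2, a D-type cyclin, gave -6.05 (SE 0.90, adjusted p = 3.90e-04) with ML KO at 37.6 to 46.9 CPM, ML WT at 0.0834 to 0.317 CPM and basal KO at 261 to 400.2 CPM. Rb1 went the other way round, with its change in LP. It fell there from 309.8, 837 and 321 CPM to 80.3, 164 and 125 CPM and gave -2.68 (SE 0.38, adjusted p = 2.84e-04), and its ML change of 0.76 was not called.

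Among 33 p53 targets, 7 (21.2%) were called lower in LP, against 7.65% of all genes, and 0 higher. The median interaction was -0.19, against -0.06 over all genes. The lower count was 4 without WT mouse 2 or the mouse block. The higher count was 2 with DESeq2, without a filter on low counts or in the 12 luminal libraries alone. It was 1 with limma voom, without WT mouse 3 or with length and GC trends removed. Cdkn1a, which encodes the CDK inhibitor p21, fell in LP and was not called in ML. It stood at 162, 139 and 105 CPM in LP KO and 638, 456 and 244 CPM in LP WT. In ML it stood at 152, 170.1 and 166 CPM in KO and 189, 106 and 105 CPM in WT. The genotypes separated in LP and overlapped in ML, and the interaction was -2.02 (SE 0.39, adjusted p = 0.00304). Phlda3, a repressor of AKT, instead rose in ML from 2.06, 1.33 and 2.48 CPM to 14.9, 25.5 and 18 CPM and gave -4.10 (SE 0.53, adjusted p = 1.07e-04). Sesn2, a stress sensor shared with the ATF4 list, gave -1.56 (SE 0.25, adjusted p = 7.41e-04) and was not called without the mouse block. None of 37 homologous recombination and Fanconi genes was called by edgeR's test or by DESeq2, limma voom or the fit without the block, and with WT mouse 1 left out 1 was called lower. Of 40 replication genes 2 were called lower, E2f7 (-3.21) and Pola1 (-1.75). That share of 5% is below the 7.65% of all genes and is no result about the list, and the count was 0 without KO mouse 1, KO mouse 2 or the mouse block, 1 without KO mouse 3, WT mouse 1 or WT mouse 2, and 7 with DESeq2. E2f7 was not called without KO mouse 1, KO mouse 2, WT mouse 1, WT mouse 2 or WT mouse 3, with an adjusted p of up to 0.126 without WT mouse 3, nor Pola1 without KO mouse 1, KO mouse 2, KO mouse 3, WT mouse 1 or WT mouse 2, with an adjusted p of up to 0.168 without WT mouse 2, and values of -2.66 to -1.23 over single-mouse exclusions.

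**Figure D5:**
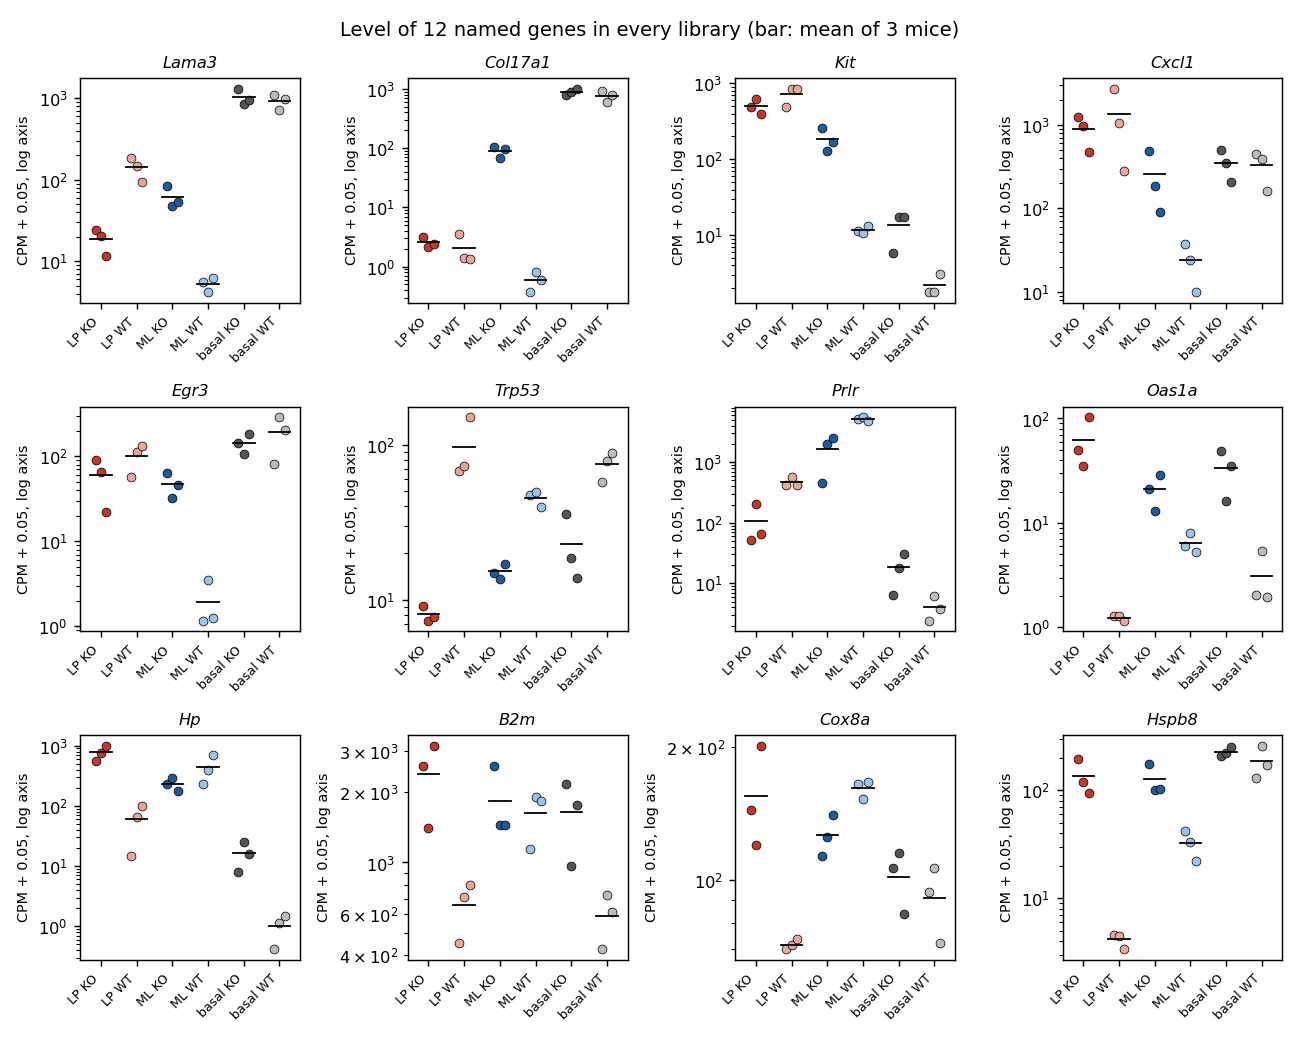
Level of 12 genes in each of 18 libraries, as CPM plus 0.05 on log axes, with mice 1 to 3 from left to right in a group and the group mean as a bar. Lama3, Col17a1, Kit, Cxcl1 and Egr3 are higher in ML KO than in ML WT without overlap, and Oas1a, Hp, B2m, Cox8a and Hspb8 are higher in LP KO than in LP WT without overlap.

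Apoptosis regulators moved in both directions. Of 20 BCL2 family genes, 4 were called higher (20%, against 2.84% of all genes) and 3 lower (15%, against 7.65%). The pro-apoptotic BH3-only gene Bik stood at 44.5, 32.6 and 51.3 CPM in LP KO and 13, 20.1 and 21.5 CPM in LP WT. The ML change was not called, at 15.2 to 23 CPM in KO and 29.4 to 32.8 CPM in WT, and its interaction was 1.87 (SE 0.35, adjusted p = 0.00263). Bad, another BH3-only gene, gave 1.60 and was not called without the mouse block. The anti-apoptotic gene Bcl2 rose in ML from 5.38, 3 and 1.92 CPM to 20.6, 16.2 and 19.5 CPM, while its LP level was 31.5 to 65.1 CPM in KO and 34.5 to 79.8 CPM in WT. Its interaction was -2.93 (SE 0.56, adjusted p = 0.00308). Without KO mouse 1 or KO mouse 3, 2 family members were called higher, and without WT mouse 2, 1 was called lower.

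Chaperones, keratins and junction genes held single cases. Of 22 chaperone genes 1 was called higher in LP (4.55%) and 2 lower (9.09%). Of 26 luminal keratin and junction genes 1 was called higher (3.85%) and 2 lower (7.69%). These shares are near the 2.84% and 7.65% of all genes and are no result about the lists. Hspb8, a small heat shock protein that works with Bag3, rose in both, from 4.56, 4.45 and 3.31 to 197, 119.5 and 94.2 CPM in LP and from 42.3, 33.1 and 22.1 to 177, 99.8 and 102 CPM in ML. KO levels overlapped between the 2 populations and every WT level was lower in LP than in ML, with an interaction of 3.07 (SE 0.41, adjusted p = 1.45e-04). Dnajb9 (-1.45) and Cryab (-1.91) were the 2 of 22 called lower. Dnajb9 was not called without KO mouse 1, KO mouse 3 or WT mouse 2, with an adjusted p of up to 0.0972 without WT mouse 2, nor Cryab without KO mouse 1, KO mouse 2, WT mouse 1, WT mouse 2 or WT mouse 3, with an adjusted p of up to 0.125 without KO mouse 1, and values of -2.43 to -1.25 over single-mouse exclusions. Cldn1, a tight junction claudin, rose in ML from 5.38, 3.5 and 1.2 CPM to 229, 96.4 and 133 CPM and gave -4.50 (SE 0.45, adjusted p = 1.36e-05). Krt23 gave -3.33 (adjusted p = 0.00252). Cldn8, with 1.27, was the member called higher, and was not called without KO mouse 1, KO mouse 2, WT mouse 1, WT mouse 2 or WT mouse 3, with an adjusted p of up to 0.117 without WT mouse 1.

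mTORC1 genes gave 1 higher and 7 lower of 44 (15.9% lower, against 7.65% of all genes), among them the mTOR inhibitor gene Deptor (-4.65, adjusted p = 0.00313) and the folliculin partner gene Fnip2 (-1.93, adjusted p = 0.00581). ATF4 and amino acid genes gave 1 higher and 5 lower of 34 (14.7% lower), with the transcription factor gene Cebpb at -2.11 (SE 0.31, adjusted p = 3.65e-04) and the lipoprotein receptor gene Vldlr at -2.44. The serine synthesis gene Psat1 gave -1.98 and was not called without KO mouse 1, KO mouse 3 or WT mouse 1, with an adjusted p of up to 0.118 without WT mouse 1. Ribosome biogenesis and Myc genes gave 4 of 34 lower (11.8%). Myc stood in ML at 333, 136 and 150.3 CPM in KO and 88.5, 80.9 and 42.4 CPM in WT, separate by genotype, and its interaction of -1.60 (adjusted p = 0.0146) was not called without KO mouse 1 or WT mouse 2, with an adjusted p of up to 0.0887 without KO mouse 1. Mycn, at 0 counts over ML WT and 41 over ML KO, was at least 7.96-fold higher there and lost its call without WT mouse 3 (adjusted p = 0.0784). Rrs1, a ribosome assembly factor, gave -1.29 and was not called without KO mouse 1, KO mouse 3 or WT mouse 3, with an adjusted p of up to 0.0711 without KO mouse 1. The lower counts of the mTORC1, ATF4 and ribosome lists were 3, 2 and 1 without KO mouse 1 and also without the mouse block. They were 4, 3 and 2 without KO mouse 3, 5, 2 and 3 without WT mouse 1, 3, 3 and 2 without WT mouse 2, and 4, 5 and 1 without WT mouse 3.

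Glycolysis and hypoxia genes gave 3 higher and 3 lower of 28 (10.7% each, against 2.84% and 7.65% of all genes). Egln3, a prolyl hydroxylase that acts on HIF, rose in ML from 1.27, 4.34 and 1.5 CPM to 56.2, 20.1 and 15.9 CPM and gave -3.64 (SE 0.40, adjusted p = 2.81e-05). The glycolytic enzyme genes Pgam1 (1.28) and Pfkm (1.15) were called higher, and both lost their calls without WT mouse 2 (adjusted p = 0.099 and 0.0561). Cholesterol and fatty acid genes gave 2 in each direction of 33 (6.06% each), with a median interaction of 0.06. The lower share is below the 7.65% of all genes and is no result about the list. With 1 mouse left out the higher count ran from 0 (KO mouse 1) to 3 (WT mouse 3), and the lower count from 0 (WT mouse 2 or WT mouse 3) to 4 (WT mouse 1). The desaturase gene Scd2 (2.35) was not called without KO mouse 1 (adjusted p = 0.0536), nor the lipogenic gene Thrsp (-4.86) without WT mouse 2 or WT mouse 3, with an adjusted p of up to 0.0919 without WT mouse 3, and values of -7.64 to -3.91 over single-mouse exclusions. Of 20 sensors of cytosolic nucleic acid, 2 were called higher (10%) and 1 lower (5%, below the share of all genes). The DNA sensing adaptor gene Sting1 (1.12) was not called without KO mouse 1 or WT mouse 2, with an adjusted p of up to 0.173 without WT mouse 2, nor the kinase gene Ikbke (1.62) without KO mouse 1, KO mouse 3, WT mouse 1 or WT mouse 2, with an adjusted p of up to 0.183 without WT mouse 2. Without WT mouse 2 the higher counts of glycolysis and of sensing genes were both 0.

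The largest positive interactions belonged to Hp, the interferon genes above, and genes of low level. Hp encodes haptoglobin, an acute phase protein that binds haemoglobin, at mm10 chr8:109575128-109579172. It stood at 556, 765 and 1005 CPM in LP KO and 14.6, 64.9 and 99.9 CPM in LP WT. Its ML level was 235, 292 and 174 CPM in KO and 234, 395 and 702 CPM in WT. LP genotypes separated by far and ML genotypes overlapped, with an interaction of 4.83 (SE 0.46, adjusted p = 8.50e-06). Afap1l1, an actin-associated protein, stood at 23.2, 22.8 and 30.4 CPM in LP KO and 3.33, 2.45 and 5.95 CPM in LP WT, and gave 3.77 (SE 0.39, adjusted p = 1.80e-05). Fndc5, the precursor of irisin, gave 3.92 and fell in ML from 5.7, 5.34 and 6.42 CPM to 0.893, 1.44 and 1.54 CPM. Ttc36 gave 3.75 and lost its call without KO mouse 3 (adjusted p = 0.055). Aoc1 (3.85), which oxidises diamines, was not called without any 1 of the 6 mice, with an adjusted p of up to 0.122, and the histone gene H3c4 (3.85), whose reads may be shared with other histone genes, was not called without KO mouse 1, KO mouse 2, KO mouse 3, WT mouse 1 or WT mouse 3, with an adjusted p of up to 0.127 without WT mouse 3.

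The largest negative interactions beyond Lgr5 were of genes at or near 0 counts over ML WT, so that their fitted values give no bound. With that group set to 3 counts in all, ML KO was at least 889-fold higher for the desmosomal cadherin Dsc3, at least 163-fold for the GDNF receptor Gfra1 and at least 122-fold for the serpin Serpina3i. The bound was 112-fold for the bicarbonate transporter Slc4a4, 93.7-fold for the protease Adamts18, 46.4-fold for Prr9 and 21.7-fold for Zdbf2. Robo2, a guidance receptor with 1 count over ML WT, had a scaled ratio of 369, with a 95% counting interval of 65.9 to 14578. Dsc3 stood at 70.02, 65.7 and 59.1 CPM in ML KO and 0.208 to 0.753 CPM in LP KO, where its change was not called (adjusted p = 0.11), and at 88.5 to 172 CPM in basal KO. With 1 mouse left out, Dsc3 was not called without WT mouse 1 (adjusted p = 0.112), Gfra1 without WT mouse 3 (-5.23, adjusted p = 1), and Prr9 without KO mouse 2, KO mouse 3, WT mouse 2 or WT mouse 3, with an adjusted p of up to 1 without WT mouse 3, and values of -9.92 to -5.33 over single-mouse exclusions.

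Of 15 fibroblast markers 4 were called lower in LP (26.7%, against 7.65% of all genes), among them Fbln1 (-4.89), Postn (-2.89, adjusted p = 0.0101) and Pdgfra (-2.18). Fbln1 was not called without WT mouse 2 (adjusted p = 0.159), nor Pdgfra without KO mouse 1, KO mouse 2, KO mouse 3, WT mouse 2 or WT mouse 3, with an adjusted p of up to 0.221 without WT mouse 2. The count was 1 without WT mouse 2 and 2 without KO mouse 1, KO mouse 2, KO mouse 3 or the mouse block. Postn stood at 94.2 to 146 CPM in ML KO and at 1714 to 2143 CPM in basal KO. None of 16 endothelial and pericyte or 8 adipocyte markers tested was called by edgeR's test or by DESeq2. Alas2, a haem synthesis gene of the blood and muscle list, gave 3.20 (SE 0.68, adjusted p = 0.00615), and the other 8 tested were not called.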

How the data were processed

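RNA was sequenced in bulk from sorted cells of 3 KO and 3 WT mice (miRNeasy kit and TruSeq RNA v2 libraries, per the labels' protocols). The authors deposited reads counted per gene (whole-number counts); featureCounts and mm10 are named in the submitters' processing notes. Aligner, annotation, strand setting and versions: not given in the sources used here. Antisense and overlapping genes therefore cannot be told apart. All 18 single-library files equalled the series-wide table, and 0 columns lacked a sample. Of 27179 gene identifiers 1904 had no symbol (1.6% of counts).

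Counts were filtered with filterByExpr, which left 16466 genes, and scaled with TMM. Quasi-likelihood models were fitted to 18 libraries (edgeR 4.0.16, R 4.3.3). The interaction fit had the mouse as a block, since a number marks 1 mouse within a genotype per the labels and same-mouse deviations correlated above 0.1 in 6 of 6 pairs. KO against WT within LP or ML had no block. The fits were tested on simulated data. CPM per library and log2 CPM (prior count 2) describe levels. The common coefficient of variation was 26.4%. No replicate pair repeated a library, with a chi-square per degree of freedom of at least 22.6. Intervals cover counting error only.

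The comparison and the 35 gene lists (963 of 964 genes matched) were chosen with earlier results of these data known. Genes named were Trp53 and Brca2, the 10 largest called interactions in each direction with at least 2 CPM in a luminal group and per-mouse differences that did not overlap (true of 32.7% of all genes), the 10 of lowest p and up to 3 called members of lowest p per list. Of these, 2 genes are not reported here. Predicted, olfactory, antigen receptor and Y-linked genes and Xist were left out. Krt5, Krt14, Acta2, Ifit1, Ifit2, Ifit3, Cxcl10, Esr1, Foxa1, Prlr, Lrriq1, Abcc2 and Nppb were chosen after their values were seen. Alternatives were RLE scaling, no filter, DESeq2 1.42.0, limma 3.58.1 voom, the 12 luminal libraries alone, thinning to 5973390 counts, each mouse left out, no mouse block, a minimum difference of 0.5 log2, and for KO against WT the replicate number as a block. Removal of trends on gene length and GC content was added after seeing the data. Promoter windows and coordinates are RefSeq's on GRCm38.p6, with 12237 of 16466 genes matched to a window.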

Additional observations from a re-analysis of the deposited data

Results flagged for a closer look

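Of the genes tested, 1727 changed with genotype by different amounts in LP and ML, since the difference itself passed its test. The values below are fitted log2 differences of the KO against WT change, LP minus ML. They are listed by gene group. For a gene at 0 counts in every library of a group, the fitted value depends on the prior count and gives no bound. Where leaving out 1 mouse ended a call, the mice and the highest adjusted p follow.

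For the deleted gene the difference was -1.96 for Trp53. Under the genes of largest positive difference it stood at 4.83 for Hp, 3.93 for Oas1a, 3.92 for Fndc5, 3.86 for Oas1g, 3.85 for H3c4, 3.85 for Aoc1, 3.77 for Afap1l1, 3.75 for Ttc36, 3.69 for Usp18 and 3.61 for Oas2. Oas1g was not called without WT mouse 3 (adjusted p = 0.0581). H3c4 lost its call without KO mouse 1, KO mouse 2, KO mouse 3, WT mouse 1 or WT mouse 3, with an adjusted p of up to 0.127 without WT mouse 3. The call of Aoc1 ended without KO mouse 1, KO mouse 2, KO mouse 3, WT mouse 1, WT mouse 2 or WT mouse 3, with an adjusted p of up to 0.122 without WT mouse 1. Ttc36 was not called without KO mouse 3 (adjusted p = 0.055). The values for the genes of largest negative difference were -11.54 for Dsc3, -10.27 for Gfra1, -10.03 for Serpina3i, -9.76 for Slc4a4, -9.58 for Lgr5, -9.54 for Zdbf2, -9.48 for Robo2, -9.27 for Adamts18 and -9.19 for Prr9. The call of Dsc3 ended without WT mouse 1 (adjusted p = 0.112). Gfra1 was not called without WT mouse 3 (adjusted p = 1). Prr9 lost its call without KO mouse 2, KO mouse 3, WT mouse 2 or WT mouse 3, with an adjusted p of up to 1 without WT mouse 3, and values of -9.92 to -5.33 over single-mouse exclusions. Next, the genes of lowest p gave -6.44 for Lama3, -5.34 for Col9a3, -7.92 for Col12a1, -6.78 for Col17a1, -4.47 for Cd44, -5.87 for Sema6a, -6.38 for Enpp1, -6.90 for Gpc6, -3.94 for Epb41l2 and -4.34 for Flrt3. With the list of p53 targets the fit gave -4.10 for Phlda3, -1.56 for Sesn2 and -2.02 for Cdkn1a. Within the list of p53 partners and regulators the values were -3.26 for Trp63. The call of Trp63 ended without WT mouse 2 (adjusted p = 0.0633).

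For the list of mitosis and cell cycle the difference was -2.13 for Prc1, -2.22 for Mki67 and -2.42 for Bub1. The call of Mki67 ended without WT mouse 3 (adjusted p = 0.0579). Bub1 was not called without KO mouse 2, KO mouse 3, WT mouse 1 or WT mouse 3, with an adjusted p of up to 0.108 without WT mouse 3. Under the list of replication and licensing it stood at -3.21 for E2f7 and -1.75 for Pola1. The call of E2f7 ended without KO mouse 1, KO mouse 2, WT mouse 1, WT mouse 2 or WT mouse 3, with an adjusted p of up to 0.126 without WT mouse 3. Pola1 was not called without KO mouse 1, KO mouse 2, KO mouse 3, WT mouse 1 or WT mouse 2, with an adjusted p of up to 0.168 without WT mouse 2, and values of -2.66 to -1.23 over single-mouse exclusions. The values for the list of G1 cyclins and CDK inhibitors were -6.50 for Cdk6, -2.68 for Rb1 and -6.05 for Ccnd2. Next, the list of antigen presentation gave 1.67 for B2m, 1.39 for H2-D1 and 2.69 for H2-DMa. H2-D1 was not called without WT mouse 2 (adjusted p = 0.0567). H2-DMa lost its call without KO mouse 3 or WT mouse 2, with an adjusted p of up to 0.0898 without WT mouse 2. With the list of NF-kB and inflammatory the fit gave -3.54 for Cxcl1, -2.18 for Tnfaip3 and -2.54 for Icam1. Within the list of oxidative phosphorylation the values were 1.46 for Cox8a, 1.41 for Ndufa4 and 1.22 for Ndufb8. Ndufa4 lost its call without WT mouse 2 (adjusted p = 0.058). The call of Ndufb8 ended without KO mouse 1, KO mouse 3, WT mouse 1 or WT mouse 2, with an adjusted p of up to 0.101 without WT mouse 2.

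For the list of glycolysis and hypoxia the difference was -3.64 for Egln3, 1.15 for Pfkm and 1.28 for Pgam1. The call of Pfkm ended without WT mouse 2 (adjusted p = 0.0561). Pgam1 was not called without WT mouse 2 (adjusted p = 0.099). Under the list of proteasome it stood at 1.37 for Pomp, 1.02 for Psmb1 and 1.22 for Psmb5. The call of Psmb1 ended without KO mouse 1, KO mouse 3, WT mouse 1 or WT mouse 2, with an adjusted p of up to 0.168 without WT mouse 2. Psmb5 was not called without KO mouse 1, WT mouse 1, WT mouse 2 or WT mouse 3, with an adjusted p of up to 0.106 without KO mouse 1. The values for the list of mTORC1 complex and regulators were -4.65 for Deptor and -1.93 for Fnip2. Next, the list of ATF4 and amino acid supply gave -2.11 for Cebpb, -2.44 for Vldlr and -1.98 for Psat1. Psat1 was not called without KO mouse 1, KO mouse 3 or WT mouse 1, with an adjusted p of up to 0.118 without WT mouse 1. With the list of cholesterol and fatty acid synthesis the fit gave 2.35 for Scd2 and -4.86 for Thrsp. The call of Scd2 ended without KO mouse 1 (adjusted p = 0.0536). Thrsp was not called without WT mouse 2 or WT mouse 3, with an adjusted p of up to 0.0919 without WT mouse 3, and values of -7.64 to -3.91 over single-mouse exclusions. Within the list of ribosome biogenesis and Myc the values were -6.87 for Mycn, -1.60 for Myc and -1.29 for Rrs1. The call of Mycn ended without WT mouse 3 (adjusted p = 0.0784). Myc was not called without KO mouse 1 or WT mouse 2, with an adjusted p of up to 0.0887 without KO mouse 1. Rrs1 lost its call without KO mouse 1, KO mouse 3 or WT mouse 3, with an adjusted p of up to 0.0711 without KO mouse 1.

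For the list of immediate early genes the difference was -5.57 for Nr4a2, -5.58 for Egr3 and -2.73 for Fosl1. Under the list of heat shock and chaperones it stood at 3.07 for Hspb8, -1.45 for Dnajb9 and -1.91 for Cryab. Dnajb9 was not called without KO mouse 1, KO mouse 3 or WT mouse 2, with an adjusted p of up to 0.0972 without WT mouse 2. Cryab lost its call without KO mouse 1, KO mouse 2, WT mouse 1, WT mouse 2 or WT mouse 3, with an adjusted p of up to 0.125 without KO mouse 1, and values of -2.43 to -1.25 over single-mouse exclusions. The values for the list of luminal progenitor identity were -4.57 for Tspan8, -3.92 for Sox10 and -4.49 for Kit. Next, the list of mature luminal identity gave -3.87 for Igf1r, 2.00 for Ly6a and 2.03 for Prom1. Ly6a lost its call without KO mouse 1, KO mouse 3, WT mouse 1 or WT mouse 2, with an adjusted p of up to 0.0995 without KO mouse 3. The call of Prom1 ended without KO mouse 1, KO mouse 2, WT mouse 1, WT mouse 2 or WT mouse 3, with an adjusted p of up to 0.211 without KO mouse 1, and values of 1.23 to 3.01 over single-mouse exclusions. With the list of estrogen and progesterone response the fit gave -3.65 for Igfbp5. Within the list of milk and secretory genes the values were -3.17 for Xdh, -2.83 for Mfge8 and -3.43 for Elf5.

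For the list of luminal keratins and junctions the difference was -4.50 for Cldn1, -3.33 for Krt23 and 1.27 for Cldn8. The call of Cldn8 ended without KO mouse 1, KO mouse 2, WT mouse 1, WT mouse 2 or WT mouse 3, with an adjusted p of up to 0.117 without WT mouse 1. Under the list of ErbB receptors and ligands it stood at -5.55 for Egfr, -4.58 for Lrig3 and -6.79 for Nrg1. The values for the list of Wnt pathway were -3.03 for Fzd1 and -2.63 for Lgr4. Next, the list of Notch pathway gave -3.60 for Maml2, -4.72 for Dll1 and -4.75 for Dtx1. With the list of IGF axis the fit gave -4.98 for Igfbp3. Within the list of apoptosis BCL2 family the values were 1.87 for Bik, -2.93 for Bcl2 and 1.60 for Bad.

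For the list of cytosolic nucleic acid sensing the difference was 1.12 for Sting1 and 1.62 for Ikbke. The call of Sting1 ended without KO mouse 1 or WT mouse 2, with an adjusted p of up to 0.173 without WT mouse 2. Ikbke was not called without KO mouse 1, KO mouse 3, WT mouse 1 or WT mouse 2, with an adjusted p of up to 0.183 without WT mouse 2. Under the list of immune cell markers it stood at 2.54 for Csf1r, 4.33 for Itgam and -5.33 for S100a8. The call of Csf1r ended without KO mouse 1, KO mouse 3, WT mouse 1 or WT mouse 2, with an adjusted p of up to 0.188 without WT mouse 2. Itgam was not called without KO mouse 1, KO mouse 2, KO mouse 3, WT mouse 1, WT mouse 2 or WT mouse 3, with an adjusted p of up to 0.182 without WT mouse 2, and values of 3.90 to 6.58 over single-mouse exclusions. S100a8 lost its call without KO mouse 1, KO mouse 2, KO mouse 3, WT mouse 1, WT mouse 2 or WT mouse 3, with an adjusted p of up to 0.163 without WT mouse 1. The values for the list of fibroblast markers were -4.89 for Fbln1, -2.89 for Postn and -2.18 for Pdgfra. Fbln1 was not called without WT mouse 2 (adjusted p = 0.159). Pdgfra lost its call without KO mouse 1, KO mouse 2, KO mouse 3, WT mouse 2 or WT mouse 3, with an adjusted p of up to 0.221 without WT mouse 2. Next, the list of blood and muscle markers gave 3.20 for Alas2. With genes chosen after their values were seen the fit gave -5.52 for Krt5, -4.81 for Krt14, -3.00 for Acta2, -1.84 for Ifit1, -2.73 for Ifit2, -5.78 for Ifit3, -2.21 for Cxcl10, -5.68 for Lrriq1, -5.65 for Abcc2 and -6.55 for Nppb. Ifit1 lost its call without KO mouse 1, KO mouse 2, KO mouse 3, WT mouse 2 or WT mouse 3, with an adjusted p of up to 0.208 without WT mouse 2. The call of Ifit2 ended without WT mouse 2 (adjusted p = 0.0538). Ifit3 was not called without KO mouse 1, KO mouse 2, WT mouse 2 or WT mouse 3, with an adjusted p of up to 0.198 without WT mouse 3. Lrriq1 lost its call without KO mouse 3 or WT mouse 2, with an adjusted p of up to 0.063 without WT mouse 2, and values of -8.59 to -4.93 over single-mouse exclusions. The call of Abcc2 ended without KO mouse 1, KO mouse 3 or WT mouse 1, with an adjusted p of up to 0.0606 without KO mouse 1. Nppb was not called without KO mouse 1, KO mouse 3, WT mouse 1, WT mouse 2 or WT mouse 3, with an adjusted p of up to 0.168 without WT mouse 2.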

How the results depend on the processing

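The interaction called 1727 genes, and 1726 with RLE scaling, 1888 without a filter on low counts, 1831 with limma voom, 1401 in the 12 luminal libraries alone and 1559 with library totals thinned to 1 value. DESeq2 called 2510, with 777 higher in LP in place of 468. Without the replicate block it called 1141, of which 202 were higher and 1118 were among the 1727. Against a minimum difference of 0.5 log2 it called 1086, 173 of them higher. With length and GC trends removed it called 1732, 1366 of them among the 1727. With 1 mouse left out the counts were 935 to 1460 in all, 122 to 357 higher and 813 to 1103 lower. The share of higher genes among the called was 27.1%, and 13.4% without KO mouse 1, 13.0% without WT mouse 2, 15.9% against the minimum difference and 17.7% without the block.

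KO against WT in LP called 2178 genes, and 1233 (710 up, 523 down) with the replicate number as a block, a number that different mice share across genotypes. DESeq2 called 1459 down. With 1 mouse left out it called 579 to 2255 genes, 388 to 1327 up and 191 to 928 down, lowest without WT mouse 2. In ML the count was 2491, and 1449 (1143 up) with the replicate block. DESeq2 called 676 down. With 1 mouse left out it was 1526 to 2403, 1417 to 1928 up and 80 to 522 down. The interactions of Foxa1 and Prlr, not called, ranged from -0.47 to 0.35 and from -0.65 to 0.23 with 1 mouse left out, above 0 without KO mouse 3, and that of Prlr was 0.58 with the replicate block and length and GC trends removed. No other named gene changed direction under any alternative run. Of 123 named genes, 24 lost their call without the block, 19 against the minimum difference, 15 with thinned totals and 15 to 33 with 1 mouse left out. Causes of these shifts were not tested. Depth limits genes at few counts over ML WT, which holds the shallowest library and where folds are bounds.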
